A study of Mus musculus with 3 samples.

Results

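Synaptic vesicle endocytosis retrieves vesicle membrane after transmitter release, and the 10 genes described here encode central proteins of its clathrin and dynamin pathway: Dnm1, Dnm2, Dnm3, Cltc, Snap91, Picalm, Amph, Sh3gl2, Itsn1 and Synj1. They were chosen by name, all 10 are among the 32531 gene symbols counted in each library, and all passed the minimum of 10 counts in 2 libraries. Their RNA was measured by translating ribosome affinity purification (TRAP), which sequences the RNA held by ribosomes that carry an EGFP-tagged protein and are captured with an antibody to EGFP. The tissue was the deep cerebellar nuclei, which carry the cerebellum's output, of adult C57BL/6J mice of the Htr6-TRAP line NIDA113, which carries an EGFP/Rpl10a transgene named for the serotonin receptor gene Htr6. All 3 libraries are immunopurified samples of this 1 group, without a further treatment or genotype in the labels, so values are compared between genes within a library and between libraries. Unpurified tissue was not analysed here, and a level is therefore an abundance in the purified RNA, not an enrichment over tissue. In bulk RNA, fewer cells of a type and less RNA per cell cannot be told apart.

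At the presynaptic terminal, adaptor proteins gather vesicle proteins and lipids at the plasma membrane and recruit clathrin, which forms a coat around the growing pit. Proteins with BAR domains bend the neck of the pit, the GTPase dynamin pinches it off, and lipid phosphatases and chaperones then strip the coat so that the vesicle can be used again. Several steps have a neuronal and a widely expressed form of the same protein: dynamin 1 and dynamin 3 beside dynamin 2, AP180 beside CALM, and amphiphysin 1 beside the Bin1 protein. Neurons of the deep nuclei fire spontaneously, and their terminals release transmitter at high rates.

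The dynamin genes are the closest relatives among the members, so their coding sequences are shown to make clear what separates their reads. Aligned over their longest coding transcripts in GENCODE M21 (build mm10), Dnm1 and Dnm2 were identical at 78.2% of 2546 bases, Dnm1 and Dnm3 at 73.7% of 2561 bases, and Dnm3 and Dnm2 at 74.6% of 2564 bases. The lines below hold coding bases 88 to 159 of each, all within exon 1, a stretch that codes for the nucleotide-binding loop of the GTPase domain. It lies at chr2:32353051-32353122 on the minus strand for Dnm1, chr9:21425183-21425254 on the plus strand for Dnm2 and chr1:162477665-162477736 on the minus strand for Dnm3. Capitals mark the bases that differ from Dnm1, 5 of 72 in Dnm2 and 5 of 72 in Dnm3.
Dnm1: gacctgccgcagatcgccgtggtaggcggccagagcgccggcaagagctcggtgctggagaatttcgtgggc
Dnm2: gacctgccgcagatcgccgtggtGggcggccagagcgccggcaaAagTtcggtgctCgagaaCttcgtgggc
Dnm3: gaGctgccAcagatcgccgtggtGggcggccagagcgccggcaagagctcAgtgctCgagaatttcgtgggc

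The longest run of identical aligned bases was 35 between Dnm3 and Dnm2 (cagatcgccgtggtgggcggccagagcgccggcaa, within the stretch above) and 34 between Dnm1 and Dnm2 (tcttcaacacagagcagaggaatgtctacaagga, coding bases 1751 to 1784 of Dnm1). Of all windows of 50 bases in the longest coding transcript, 0% were found in another annotated gene for Dnm1, Dnm2, Cltc, Snap91, Picalm, Amph, Sh3gl2 and Itsn1. The share was 4.09% for Dnm3, all of it in the opposite-strand model Gm10176, which is not among the gene symbols counted. It was 0.156% for Synj1, all of it in the opposite-strand transcript 4930404I05Rik, which had 0 counts in each library. Dnm2 shares 207 exon bases with Tmed1 on the opposite strand, which had 10, 11 and 0 counts. Dnm3 also shares 42 exon bases with 2810442N19Rik on the opposite strand (4, 0 and 0 counts). Since no source used here gives the strand setting of the counting, reads in these overlaps cannot be assigned to a strand.

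Gene counts totalled 7695397 in replicate 1, 8842058 in replicate 2 and 7622010 in replicate 3. The labels do not say whether they came from separate animals or pools, so p-values and SDs cover the spread between these samples, which may be technical. Htr6 itself had 0, 7 and 0 counts. All 9 pan-neuronal markers had at least 10 CPM (counts per 1000000 gene counts, after TMM scaling of the library sizes), and Snap25 and Nefm were the highest, with Snap25 at 14585 ± 2875 CPM (SD, n = 3). Markers of excitatory deep nuclei neurons summed to 423 to 666 CPM (4 of 6 at 10 CPM or more), from Slc17a6 (302 ± 80.2 CPM) and Spp1 (128 ± 29.0 CPM) down to Tbr1 (10.4 ± 8.2 CPM), Lhx9 (6.2 ± 2.3 CPM) and Lhx2 (1.6 ± 1.7 CPM). Markers of inhibitory neurons summed to 406 to 945 CPM (5 of 5), from Gad2 (414 ± 169 CPM) and Gad1 (203 ± 60.4 CPM) down to Pax2 (27.7 ± 24.6 CPM), Slc6a5 (23.8 ± 18.7 CPM) and Slc32a1 (23.7 ± 19.6 CPM). Markers of other cells were present too. Summed over the list, granule cell markers reached 3327 to 3733 CPM (7 of 7 at 10 CPM or more, led by Cbln3 and Fat2), Purkinje cell markers 5644 to 7581 CPM (5 of 7, led by Itpr1 and Rgs8), oligodendrocyte markers 1439 to 1842 CPM (5 of 7, led by Mbp and Mobp) and astrocyte markers 1820 to 2290 CPM (6 of 7, led by Slc1a2 and Aqp4). Microglial markers summed to 19.8 to 37.0 CPM (1 of 8 at 10 CPM or more), led by Csf1r and Cx3cr1, with C1qa, Aif1 and Trem2 at 0 counts. Vascular markers summed to 45.3 to 93.5 CPM (2 of 6), led by Flt1 and Rgs5, with Cldn5 at 0, and choroid plexus and ependymal markers to 5.6 to 7.1 CPM (0 of 4), led by Foxj1 and Ttr, with Folr1 and Aqp1 at 0. Most of the Purkinje cell sum, with a mean of 6730 CPM, was Itpr1 (3669 ± 451 CPM) and Rgs8 (1733 ± 502 CPM). The lowest of that list were Pcp2 (27.6 ± 12.8 CPM), Skor2 (7.35 ± 4.98 CPM) and Pcp4 (0.339 ± 0.284 CPM). The lowest granule cell marker was Slc17a7 (54.7 ± 18.5 CPM). Opalin (0.959 ± 0.877 CPM) was the lowest of the oligodendrocyte list and Aldh1l1 (5.20 ± 2.33 CPM) of the astrocyte list. The part of each cell type in the members' levels was not tested.

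The 10 genes together took 0.571%, 0.569% and 0.670% of the gene counts in replicates 1, 2 and 3. All 10 had a mean of at least 10 CPM, against 72.5% of the 11168 genes tested, and 9 had at least 100 CPM, against 18.5%. Dnm2 was the exception. Their median level was 443 CPM, beside 24.7 CPM over all genes tested. CPM takes no account of gene length, so levels of different genes are compared below as RPKM (CPM per 1000 bases of annotated exon), for which the median was 50.5 RPKM, beside 5.46 RPKM over all genes tested. No source used here gives the annotation behind the counts. Therefore 2 lengths were applied, the union of all annotated exons and, where stated, the longest coding transcript.

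**Figure D1:**
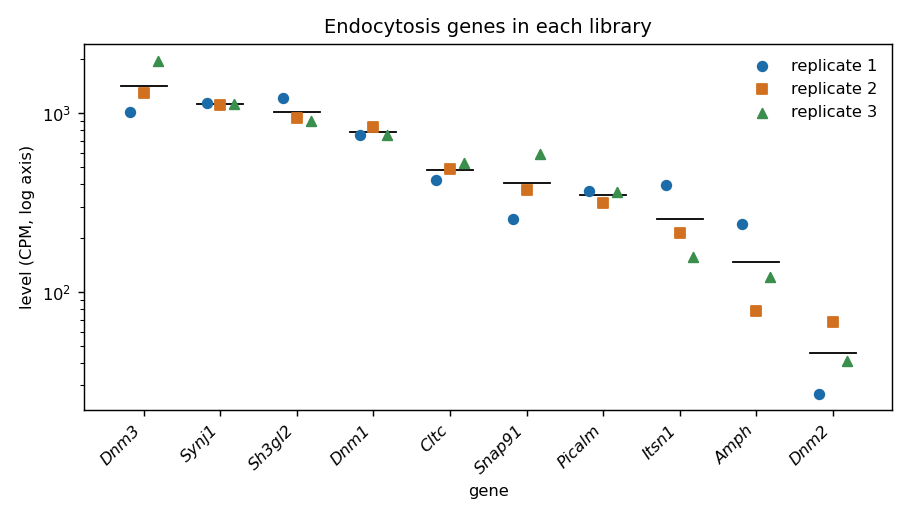
Level of each endocytosis gene in each library (y axis, CPM on a log axis; x axis, genes in order of mean level), with 1 point per library and a line at the mean of 3. Synj1 lies between 1106 and 1135 CPM in all libraries, whereas Amph runs from 77.9 to 240 CPM and Dnm2 stays under 70 CPM.

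Dynamin transcripts were mostly those of the neuronal forms. Dnm1, which encodes the main dynamin of nerve terminals (ENSMUSG00000026825.17, chr2:32308471-32353338, minus strand), had 5714, 7317 and 5895 counts in replicates 1, 2 and 3, or 756, 830 and 756 CPM. Replicate 2 was the highest and the others were level. Dnm3, a second neuronal dynamin that is also found at dendritic spines (ENSMUSG00000040265.16, chr1:161982453-162478034, minus strand), had 7606, 11452 and 15297 counts, or 1007, 1300 and 1963 CPM. Dnm2, the form found in most cell types (ENSMUSG00000033335.17, chr9:21424908-21507759, plus strand), had 204, 598 and 320 counts, or 27.0, 67.9 and 41.1 CPM. The highest Dnm2 value per length, 12.7 RPKM in replicate 2, lay below the lowest of Dnm3, 41.2 RPKM, and of Dnm1, 144 RPKM.

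Per length of annotated exon, Dnm1 was at 149 ± 8.1 RPKM (SD, n = 3), Dnm3 at 58.2 ± 20.03 RPKM and Dnm2 at 8.50 ± 3.89 RPKM. Dnm1 exceeded Dnm2 by 4.21 ± 0.59 on the log2(RPKM + 0.1) scale, an 18.5-fold difference, in 3 of 3 libraries, and by 4.09 with the longest coding transcripts. Dnm3 exceeded Dnm2 by 2.81 ± 0.68 in 3 of 3 libraries, and by 3.90 with the longest coding transcripts. Dnm2 made up 3.89 ± 1.59% of the dynamin RPKM with the exon union and 3.14 ± 1.35% with the coding transcripts. The order of the neuronal forms depended on the length. Dnm1 exceeded Dnm3 by 1.41 ± 0.50 in 3 of 3 libraries with the exon union, in which Dnm3 counts 24452 bases. With the coding transcript of Dnm3, 7523 bases, the difference was 0.19 ± 0.50, smaller than its SD, with Dnm1 higher in 2 of 3 libraries. In replicate 3 Dnm3 held its highest share of the dynamin RPKM on either length, 34.6% against 21.6% and 23.7% with the exon union.

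Differences between 2 genes were tested by exact permutation of their signs (two-sided), for which the smallest p with 3 libraries is 0.25. This value (0.3 after Benjamini-Hochberg adjustment over the 12 pairs) was reached by 10 of 12 pairs, those with 1 sign in all libraries, so sizes are read against the SD.

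**Figure D2:**
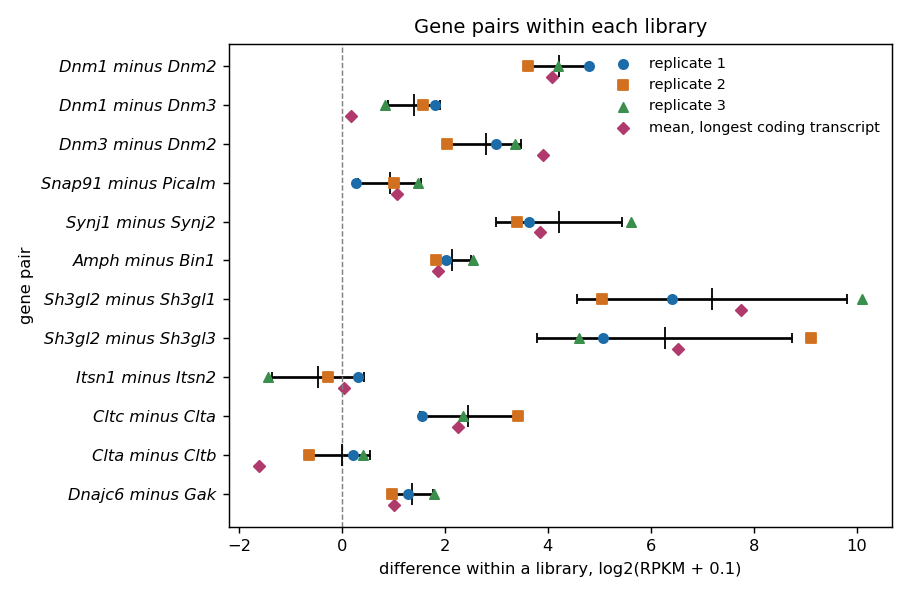
Difference between 2 genes within a library (x axis, log2(RPKM + 0.1) with the exon union; y axis, the 12 gene pairs), with 1 coloured point per library, the mean as a black tick, the SD of 3 libraries as a bar, and the mean with the longest coding transcripts as a magenta diamond. In 10 pairs the 3 points lie on 1 side of 0; for Itsn1 minus Itsn2 and Clta minus Cltb they lie on both, and the diamond of Dnm1 minus Dnm3 lies near 0.

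Of the clathrin heavy chain gene and the neuronal adaptor gene, the higher one depended on the library and on the length. Cltc, which encodes the chain that forms the legs of the clathrin triskelion (ENSMUSG00000047126.17, chr11:86694351-86757565, minus strand), had 424, 485 and 526 CPM, or 56.3 ± 6.0 RPKM and, with the longest coding transcript, 77.6 ± 8.3 RPKM. Snap91, which encodes AP180, the neuronal clathrin assembly protein (ENSMUSG00000033419.15, chr9:86765923-86880654, minus strand), had 257, 372 and 593 CPM, or 44.6 ± 18.7 RPKM and, with the longest coding transcript, 93.9 ± 39.4 RPKM, with replicate 3 at 2.31 times replicate 1. Picalm, which encodes CALM, its widely expressed relative (ENSMUSG00000039361.11, chr7:90130213-90213465, plus strand), had 366, 315 and 364 CPM, or 22.1 ± 1.8 RPKM. The ranges of Snap91 and Picalm did not overlap on the RPKM scale. Snap91 exceeded Picalm by 0.93 ± 0.61 on the log2(RPKM + 0.1) scale (1.90-fold) in 3 of 3 libraries and by 1.06 ± 0.61 with the longest coding transcripts. The difference was 0.27 in replicate 1, 1.02 in replicate 2 and 1.49 in replicate 3, while Picalm itself varied by a ratio of 1.16 between its highest and lowest library. As CPM, not per length, the difference was 0.14 ± 0.61, smaller than its SD.

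The products of the clathrin light chain genes bind the heavy chain. Clta had 229, 83 and 169 counts (11.4 ± 5.8 RPKM) and Cltb 531, 351 and 343 counts (10.6 ± 3.4 RPKM). Cltc exceeded Clta by 2.44 ± 0.93 in log2 units in 3 of 3 libraries. Cltb was not tested against Cltc, and with the longest coding transcripts it was at 51.2 ± 16.4 RPKM, a range that reached that of Cltc. Clta and Cltb did not differ beyond their spread with the exon union (-0.00 ± 0.56). With the longest coding transcripts, of 1135 and 1004 bases, the log2 difference was -1.61 ± 0.56, with Clta below Cltb in every one of the 3 libraries, and their order therefore depends on the length applied.

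Among the genes for membrane curvature and scaffolding, Sh3gl2 stood well above the others. Sh3gl2 encodes endophilin A1, a BAR domain protein of nerve terminals that recruits dynamin and synaptojanin (ENSMUSG00000028488.15, chr4:85205126-85639195, plus strand). It had 9130, 8275 and 7077 counts, or 1209, 939 and 908 CPM, with replicate 1 the highest. Per length it was at 156 ± 25.2 RPKM with the exon union and at 446 ± 72.3 RPKM with the longest coding transcript, the highest mean of the 10 genes on either length. Its paralogs were close to the limit of counting in at least 1 library. Sh3gl1, the widely expressed endophilin A2 gene, had 78, 187 and 1 counts, and Sh3gl3, the endophilin A3 gene, had 176, 6 and 187 counts. Sh3gl2 exceeded Sh3gl1 by 7.19 ± 2.62 and Sh3gl3 by 6.27 ± 2.48 on the log2(RPKM + 0.1) scale, in 3 of 3 libraries each. These sizes depend on the pseudocount and were 5.93 and 5.41 with a pseudocount of 1 RPKM. Without replicate 3, the library with 1 Sh3gl1 count, the first difference was 5.73, and without replicate 2, the library with 6 Sh3gl3 counts, the second was 4.84.

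Amph, which encodes amphiphysin 1, a BAR domain protein that brings dynamin to the neck of the pit (ENSMUSG00000021314.12, chr13:18948205-19150921, plus strand), had 1813, 686 and 941 counts, or 240, 77.9 and 121 CPM. Replicate 1 was 3.08 times replicate 2. Its relative Bin1, the amphiphysin 2 gene, which is also abundant in oligodendrocytes and muscle, had 403, 173 and 143 counts. Amph was at 32.3 ± 18.6 RPKM and Bin1 at 7.40 ± 4.82 RPKM. Both were highest in replicate 1, and Amph exceeded Bin1 by 2.14 ± 0.38 in log2 units (4.39-fold) in 3 of 3 libraries, the smallest SD of the 12 pairs. Of the 50-base windows of Bin1, 7.93% were shared with another annotated gene.

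Itsn1, which encodes intersectin 1, a scaffold with EH and SH3 domains that links adaptors to dynamin (ENSMUSG00000022957.20, chr16:91729281-91920597, plus strand), had 3007, 1870 and 1214 counts, or 398, 212 and 156 CPM. Replicate 1 was 2.56 times replicate 3. Its paralog Itsn2 had 1396, 1310 and 1915 counts, with replicate 3 the highest. Itsn1 was at 10.9 ± 5.4 RPKM and Itsn2 at 14.2 ± 3.6 RPKM. Their log2 difference was 0.32, -0.27 and -1.43 in replicates 1, 2 and 3, or -0.46 ± 0.89 (exact sign-flip permutation, two-sided p = 0.75), smaller than its SD. It was 0.03 ± 0.90 with the longest coding transcripts and 0.02 without replicate 3, so no order of the intersectin genes was seen.

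Synj1 was the most even member. Synj1 encodes synaptojanin 1, the phosphatase that removes phosphates from inositol lipids and so releases the coat (ENSMUSG00000022973.18, chr16:90936092-91011308, minus strand). It had 8576, 9745 and 8759 counts, or 1135, 1106 and 1124 CPM, and per length 139 ± 1.8 RPKM. Its paralog Synj2 had 704, 950 and 178 counts (8.95 ± 5.45 RPKM). Synj1 exceeded Synj2 by 4.22 ± 1.22 in log2 units (18.6-fold) in 3 of 3 libraries. Leaving out replicate 3, where Synj2 had its lowest count, gave 3.52. Dnajc6, which encodes the neuronal auxilin that brings the chaperone Hsc70 to the coat, was at 55.5 ± 16.2 RPKM, and Gak, its widely expressed relative, at 21.7 ± 6.8 RPKM. Dnajc6 was higher by 1.36 ± 0.41 in log2 units (2.56-fold) in 3 of 3 libraries.

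Ordered by mean RPKM with the exon union, the members ran from Sh3gl2, Dnm1 and Synj1 through Dnm3, Cltc, Snap91, Amph and Picalm to Itsn1 and Dnm2. Only 3 of the 9 steps between neighbours in this order had 1 sign in all libraries and a mean beyond the SD: Dnm1 over Synj1, by a log2 difference of 0.10 ± 0.10, Synj1 over Dnm3, by 1.31 ± 0.49, and Picalm over Itsn1, by 1.12 ± 0.67. The other neighbours did not differ beyond their spread. With the longest coding transcripts the order was Sh3gl2, Dnm1, Dnm3, Synj1, Snap91, Cltc, Amph, Picalm, Itsn1 and Dnm2, and again 3 of 9 steps passed, namely Sh3gl2 over Dnm1 (1.09 ± 0.27), Synj1 over Snap91 (0.84 ± 0.61) and Itsn1 over Dnm2 (1.39 ± 1.21). Sh3gl2, Dnm1, Synj1 and Dnm3 held the first 4 places and Dnm2 the last on both lengths.

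**Figure D3:**
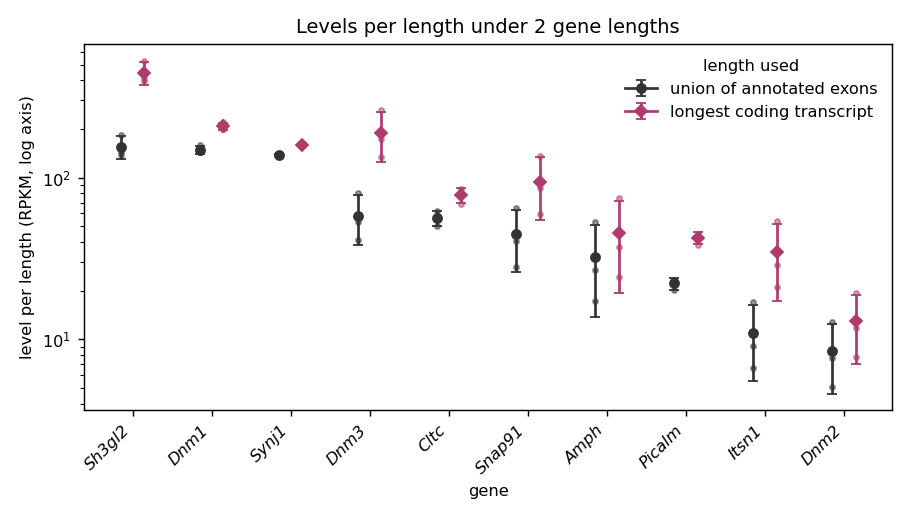
Level per length of each endocytosis gene (y axis, RPKM on a log axis; x axis, genes in order of mean RPKM with the exon union), as mean ± SD with the values of 3 libraries as small points, for the exon union (black circles) and the longest coding transcript (magenta diamonds). Dnm3, Itsn1 and Sh3gl2 move furthest between the lengths, while Dnm2 is lowest on both.

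The wider pathway list holds 44 further genes. Of these, 40 had a mean of at least 10 CPM and 16 at least 100 CPM, and none was without counts in all libraries. Their median was 11.0 RPKM, between that of the 10 members and that of all genes tested. These levels use the exon union and were higher with the longest coding transcripts (median 15.5 RPKM), most of all for Fnbp1l (14.6 against 2.16 RPKM), Cltb and Ppp3ca (242 against 53.1 RPKM), and Eps15 at 100.2 RPKM then lay above Cltc and Snap91. Among 20 further coat and adaptor genes, Sgip1 (43.9 ± 7.4 RPKM) and Eps15 (40.5 ± 4.7 RPKM), which act as early organisers of the pit, led, followed by the AP-2 adaptor subunit genes Ap2b1 (39.6 ± 14.4 RPKM), Ap2m1 (31.3 ± 9.99 RPKM) and Ap2a2 (29.9 ± 8.4 RPKM). Of the windows of Ap2m1, 42.5% were shared with other annotated genes, which makes its level uncertain. Ap2s1, the gene of the smallest AP-2 subunit, had 2, 0 and 42 counts. Ap2a1, another AP-2 subunit gene, had 39, 288 and 224 counts (5.16 ± 3.46 RPKM), with 11.2% of its windows shared with other annotated genes. The AP-2 subunit genes were thus not counted evenly. The longest coding transcripts of Ap2s1 and Ap2a1 have 836 and 3449 bases, and whether short transcripts were lost was not tested. Beside Ap2s1, Necap1 (3, 61 and 65 counts) and Ston1 (160, 0 and 0 counts) were the adaptor genes at the bottom.

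Of 10 further curvature and scaffold genes, Pacsin1, the neuronal syndapin gene, was the highest at 26.4 ± 6.2 RPKM, followed by Pacsin2 (14.8 ± 1.7 RPKM), Itsn2, Snx9 (14.2 ± 1.8 RPKM) and Snx18. The lowest with the exon union were Fnbp1l (2.16 ± 0.90 RPKM), Sh3gl1 and Pacsin3 (40, 4 and 84 counts), whereas with the longest coding transcripts Fnbp1l lay above Bin1, Sh3gl3 and Snx18. Among the 7 genes of uncoating and phosphoinositide turnover, Hspa8, which encodes the uncoating chaperone Hsc70, was at 311 ± 41.5 RPKM, but 74.8% of its windows were shared with other annotated genes, so this level is uncertain. Pip5k1c, whose product makes the inositol lipid that Synj1 breaks down at synapses, was at 27.8 ± 14.1 RPKM, Pip5k1b at 16.4 ± 9.1 RPKM and Pip5k1a at 3.71 ± 2.99 RPKM. Of the 7 kinase and phosphatase genes, the calcineurin genes Ppp3r1 (80.7 ± 8.2 RPKM) and Ppp3ca (53.1 ± 3.7 RPKM), whose enzyme dephosphorylates dynamin 1 on calcium entry, and the adaptor kinase gene Aak1 (76.0 ± 14.1 RPKM) were the highest. Dyrk1a was at 29.2 ± 9.3 RPKM and Cdk5, a kinase gene for dynamin 1, at 6.89 ± 6.63 RPKM. The lowest were Ppp3cb (5.60 ± 3.92 RPKM) and Bmp2k (3.71 ± 1.78 RPKM). Of the windows of Ppp3r1, 14.7% were shared with other annotated genes, and of those of Bmp2k, 26.3%. The paralogs of the members, Synj2, Bin1, Sh3gl1, Sh3gl3 and Itsn2, lay between 2.11 and 14.2 RPKM.

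**Figure D4:**
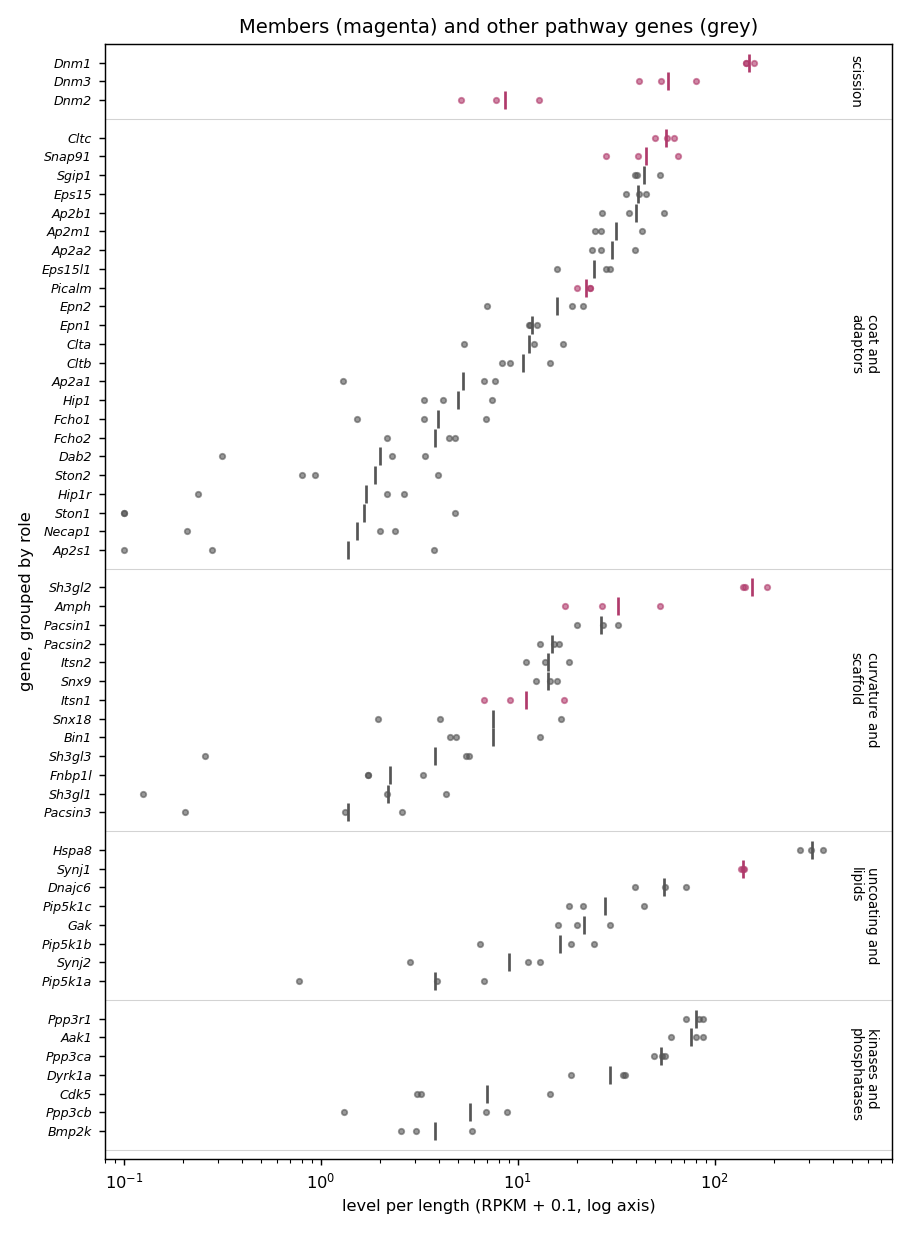
Level per length of the 10 members (magenta) and 44 other pathway genes (grey), with 1 point per library and a tick at the mean (x axis, RPKM with the exon union + 0.1, log axis; y axis, genes grouped by role). Cltc and Snap91 lie at the top of the coat group, Sh3gl2 and Amph at the top of the curvature group and Synj1 below Hspa8, while the scission group holds members alone and the kinase and phosphatase group none. Genes under about 10 RPKM spread widely between libraries.

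Differences between the libraries were uneven among the members. By a Poisson chi-square test of the counts, with Benjamini-Hochberg adjustment over 11168 genes, 9 of 10 members varied beyond counting error, against 96.5% of all genes tested. The share among members is close to that background. The member that did not pass was Synj1 (adjusted p = 0.203), whose CV over 3 libraries was 1.32% where counting error alone gives 1.05%. That CV ranked 4th from the lowest among 2067 genes with at least 100 CPM. With plain library totals in place of TMM sizes the CV of Synj1 was 2.17%, 9th of 2070 genes, and Synj1 passed the test, so that 10 of 10 members did. By edgeR's quasi-likelihood dispersion, no member was called more variable than other genes of its level. At an adjusted p under 0.05 these were 0 of 10 members and 0% of all genes tested. At an unadjusted p under 0.05 they were 0 of 10 members and 477 of 11168 genes. Without replicate 2, 3 of 10 members had an unadjusted p under 0.05, against 372 of 9658 genes. Without replicate 3 it was 1 of 10 members, against 401 of 9582 genes. After adjustment 0 of 10 members were called in each. With all 3 libraries, the smallest quasi-likelihood p among the members was 0.0626 for Dnm3 (adjusted p = 0.956).

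Of the 9 members with at least 100 CPM, 3 (Snap91, Amph and Itsn1) differed at least 2-fold between the highest and the lowest library, against 28.5% of such genes. Dnm3 came next with a ratio of 1.95. Dnm1, Picalm, Cltc and Sh3gl2 had CVs of 5.5%, 8.3%, 10.7% and 16.2%, under the median of 25.4% for genes of at least 100 CPM, as had Synj1. The CVs of Dnm3, Snap91, Itsn1 and Amph were 34.4%, 42.0%, 49.6% and 57.5%. These 4 did not vary in 1 direction: Dnm3 and Snap91 were lowest in replicate 1 and highest in replicate 3, whereas Amph and Itsn1 were highest in replicate 1. Replicate 1 also had the largest share of counted reads without an annotated feature, 50.2% against 44.1% and 44.7% in replicates 2 and 3. In replicates 1, 2 and 3, the summed pan-neuronal markers were at 25308, 22993 and 17238 CPM. Most of this sum was Snap25, with a mean of 14585 CPM in a mean sum of 21846.5 CPM, and its fall was not shared by all markers. Counts were lowest in replicate 3 for Snap25, Nefl, Nefm, Stmn2 and Elavl4. They were lowest in replicate 1 for Nefh, Tubb3 and Rbfox3, and in replicate 2 for Syt1. Markers of excitatory deep nuclei neurons summed to 666, 476 and 423 CPM and those of inhibitory neurons to 725, 406 and 945 CPM. Purkinje cell markers summed to 5644, 7581 and 6965 CPM and granule cell markers to 3327, 3733 and 3495 CPM. Astrocyte markers summed to 1820, 1939 and 2290 CPM and oligodendrocyte markers to 1758, 1842 and 1439 CPM. Within the oligodendrocyte list, counts were lowest in replicate 3 for Mbp, Mobp and Mag. For Cnp and Sox10 they were lowest in replicate 1, and for Mog and Opalin in replicate 2. The part of any of these cell types in the members' differences was not tested. With 3 libraries of 1 group, no likeness between the patterns of different genes was computed.

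**Figure D5:**
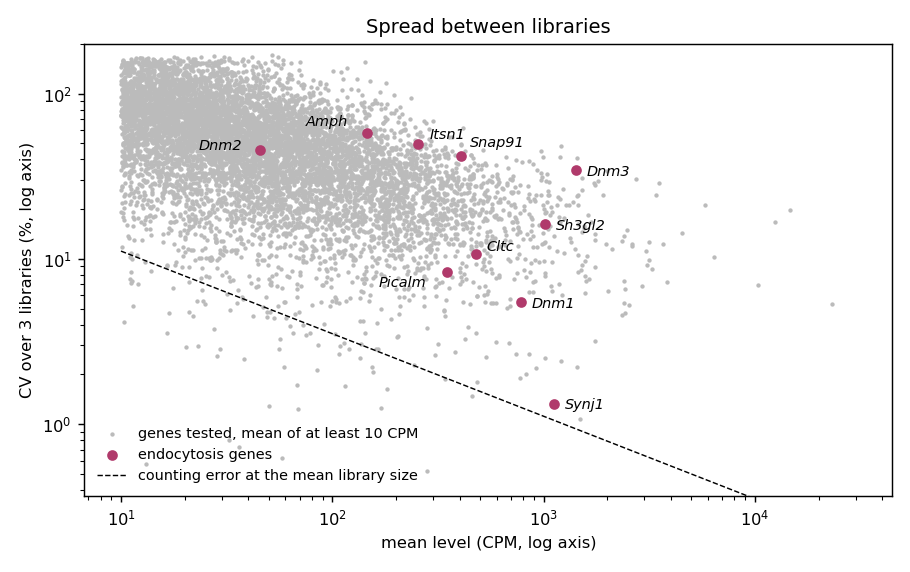
Coefficient of variation over 3 libraries (y axis, %, log axis) against mean level (x axis, CPM, log axis) for genes tested with at least 10 CPM (grey) and the endocytosis genes (magenta); the dashed line is the CV that counting error gives at the mean library size. Synj1 lies next to the line at 1.32% with TMM library sizes, whereas Amph (57.5%), Itsn1 (49.6%), Snap91 (42.0%) and Dnm3 (34.4%) lie in the upper part of the cloud.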

How the data were processed

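The deposited files give raw counts of reads per gene symbol, 1 table per library; alignment to mm10 with STAR 2.0.0e and counting with HTSeq are recorded in the submitters' processing notes. For the gene annotation, strand setting and library kit, the sources used here say nothing. Rows that name no gene were left out of library sizes. Of the reads counted to a gene, to several or to none, 50.2%, 44.1% and 44.7% had no feature and 1.77%, 1.94% and 1.88% were ambiguous. Multiply aligned reads were not counted, which lowers genes with near-identical copies.

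CPM used TMM library sizes (edgeR 4.0.16, R 4.3.3), and RPKM divided CPM by GENCODE M21 lengths matched by symbol. Differences are in log2(RPKM + 0.1), where the pseudocount understates folds of low genes, tested by exact two-sided permutation of signs over the libraries (numpy 2.4.6). Genes with at least 10 counts in 2 libraries were tested for spread by a Poisson chi-square test and, in edgeR, by quasi-likelihood dispersion. The latter was that of an intercept-only fit over its trend, and both were adjusted by Benjamini-Hochberg over all genes. Both were run on simulated counts. For the quasi-likelihood test these had a smaller spread than the libraries, whose common biological CV in edgeR was 0.832. How large a spread that test could detect here was therefore not shown. Coding sequences were aligned with Biopython 1.88. A count of 0 allows up to 0.397, 0.340 and 0.385 CPM in replicates 1, 2 and 3 (3 counts, counting error only, since reads are not independent molecules).

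Alternatives were DESeq2 1.42.0 size factors, plain totals, other pseudocounts, lengths and filters, robust estimation and leaving out each library. Named genes are the members, the genes of the 12 pairs and, of other pathway genes, the 5 highest and 3 lowest by RPKM in each role. Of each marker list they are the 2 of highest CPM and those without counts. Tbr1, Lhx9, Lhx2, Pax2, Slc6a5, Slc32a1, Pcp2, Skor2, Pcp4, Mag, Mog, Sox10, Opalin, Aldh1l1 and Slc17a7 were named in addition, after their values were seen. The same holds for Syt1, Rbfox3, Nefl, Nefh, Tubb3, Stmn2, Elavl4, Cnp and Ap2a1. The members, pairs and lists were chosen with earlier results of these data known. A marker gene of the oligodendrocyte list is not reported here and was left out of that list's values.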

Additional observations from a re-analysis of the deposited data

How the results depend on the processing

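No pairing of libraries between groups was possible because the libraries form 1 group, with no other group to share replicate numbers. The gene differences were taken within each library. Of 96 alternative values of the 12 gene differences, 90 kept their direction. Many of these could hardly turn, so the tally is no measure of stability. Library sizes nearly cancel within a library, and leaving out 1 library cannot reverse a pair with 1 sign in all 3. As CPM, not per length, Dnm1 minus Dnm3 turned to -0.81, and Itsn1 minus Itsn2 turned to 0.32; the latter was also 0.034 with the longest coding transcripts, and leaving out 1 library gave -0.85 to 0.024. Clta minus Cltb, at -0.00 ± 0.56, was 0.0091 with a pseudocount of 1 RPKM and -0.21 to 0.32 when 1 library was left out. With the longest coding transcripts it kept its sign but moved to -1.61. That these depend on length follows from the lengths themselves; for the other changes the cause was not tested. DESeq2 size factors and plain totals turned no difference, but a library's size nearly cancels between 2 genes of that library, so this tests no stability. The Poisson test called 9, 7 and 9 of 10 members without replicates 1, 2 and 3. Of all genes it then called 7977 of 9912, 7902 of 9658 and 7877 of 9582. With plain totals, which add Synj1, it called 10 of 10 members and 10779 of 11168 genes. The member counts are near these backgrounds. The count of genes more variable than others of their level, 0 in all, was 20 without a count filter and 2 to 5 when 1 library was left out; no member was among them in any of these fits. Leaving out 1 library moved the mean level of Itsn1 between 184 and 305 CPM, of Amph between 99.3 and 180 CPM and of Dnm2 between 34.0 and 54.5 CPM; a mean of 3 cannot move by 1 SD in this way, so this is no test of stability. With 3 libraries the sign permutation test gives no p under 0.25, so it could detect no difference of any size. Sizes were only read against their SD, and low counts limit Sh3gl1, Sh3gl3 and Ap2s1.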
